A study of Caenorhabditis elegans with 18 samples.

Results

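Meiosis in *Caenorhabditis elegans* needs homologous chromosomes to find each other, to be held together and to exchange DNA. A list of 35 genes whose proteins do this work was followed in animals with deletion alleles of *tcer-1*. The genes were taken by name from the 29970 genes of the mRNA table, where 34 of the 35 had an entry of exactly that name. The name *rad-54* had none, and *rad-54.L* is given beside the list, uncounted. For 30 of the 34 genes the small RNA table held antisense 22G-RNAs of the CSR class, and these were followed as well. The exceptions were *him-8*, *him-18*, *rad-51* and *syp-3*. *zim-1* was also listed under the WAGO class of 22G-RNAs and *syp-2* among ALG target 22G-RNAs, and both were kept here as CSR class.

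The samples were whole gravid hermaphrodite adults collected 72 h after synchronized L1 larvae were placed on *E. coli* OP50 at 20 °C. Wildtype animals (N2) were compared with *tcer-1(tm1452)* (strain CF2166) and *tcer-1(glm27)* (strain AGP278). These alleles, the second made by genome editing to remove the coding region, are called *tm1452* and *glm27* from here on. Each genotype had 3 replicates for mRNA-seq and 3 for sRNA-seq, so 9 libraries of either kind. Each mutant was represented by 1 strain, and the study describes asynchronous development in *tm1452* but not in *glm27*. Since whole animals were sequenced, a lower level of a germline mRNA can have several sources. Fewer germ cells and less of that mRNA in each germ cell are among them, and these cannot be told apart.

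In the *C. elegans* germline, each chromosome is built in meiotic prophase around an axis of cohesin and HORMA domain proteins. Pairing centre proteins bring homologs together at the nuclear envelope, and the synaptonemal complex then joins their axes along their length. SPO-11 cuts the DNA, and the breaks are resected, coated with the strand exchange protein RAD-51 and repaired, some of them as crossovers. CSR class 22G-RNAs are small RNAs made on germline mRNAs and bound by the Argonaute CSR-1, which is known for leaving its targets expressed.

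mRNA-seq values were counts divided by the library size factors of the authors, called normalized counts here, and the 9 libraries summed to 22491326 to 23721969 of them. *tcer-1* itself measured 5877, 6034 and 6346 normalized counts in wildtype, 959, 862 and 1026 in *tm1452* and 529, 496 and 470 in *glm27*. The mutant libraries lay far below the wildtype ones, with limma log2 fold changes of -2.68 and -3.61. Of the exonic stretches of 50 bases of *tcer-1*, 31.1% also occur elsewhere in the genome. The 22G-RNAs listed for *tcer-1* measured 19.42, 19.63 and 19.45 RPM in wildtype, 15.84, 16.26 and 14.97 in *tm1452* and 45.64, 45.02 and 43.63 in *glm27*, so they were lower in the former (log2 -0.30, limma adjusted p = 0.00197) and higher in the latter (1.16, limma adjusted p = 6.34e-07). The source of the *tcer-1* counts and 22G-RNAs left in the mutants was not tested. In the sRNA-seq data, replicate 3 of *tm1452* stood apart, at r = 0.936 and 0.941 with the other replicates of that genotype, against 0.992 to 0.996 for the remaining pairs of replicates (Pearson, log2 values over all small RNA features tested).

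The mRNAs of the meiotic chromosome and recombination genes were lower in both mutants. Of the 34 genes, 28 fell and 0 rose in *tm1452*, and 29 fell and 0 rose in *glm27*, at a limma adjusted p under 0.05 (Benjamini-Hochberg adjustment over the 17037 genes tested), and at an unadjusted p under 0.05 the count higher was also 0 in either mutant. In *tm1452* this was 82.4% of the list, where 34.1% of all genes tested fell and 35.3% rose. In *glm27* it was 85.3%, where 27.5% of all genes fell and 33.2% rose. The changes were modest: the list had a median log2 fold change of -0.33 in *tm1452* and -0.45 in *glm27*, against 0.02 and 0.13 over all genes. No gene of the list fell 2-fold in either mutant, whereas 7.51% and 2.07% of all genes did. Between them, 26 genes fell in both mutants, 2 in *tm1452* alone (*htp-1* and *him-14*), 3 in *glm27* alone (*syp-1*, *rec-8* and *him-5*), and 3 (*htp-2*, *him-3* and *him-8*) passed in neither. Both comparisons use the same wildtype libraries, so they are not independent of each other. With equal upper quartiles in the libraries, *syp-1* (-0.10), *syp-3* (-0.02), *spo-11* (-0.09), *rad-51* (-0.09) and *him-5* (-0.55) did not pass in *glm27*, nor *htp-1* (-0.10) and *dsb-2* (-0.08) in *tm1452*, while *him-3* was higher in *tm1452* (0.18) and *him-14* in *glm27* (0.17). No log2 fold change that had passed turned its sign there.

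**Figure D1:**
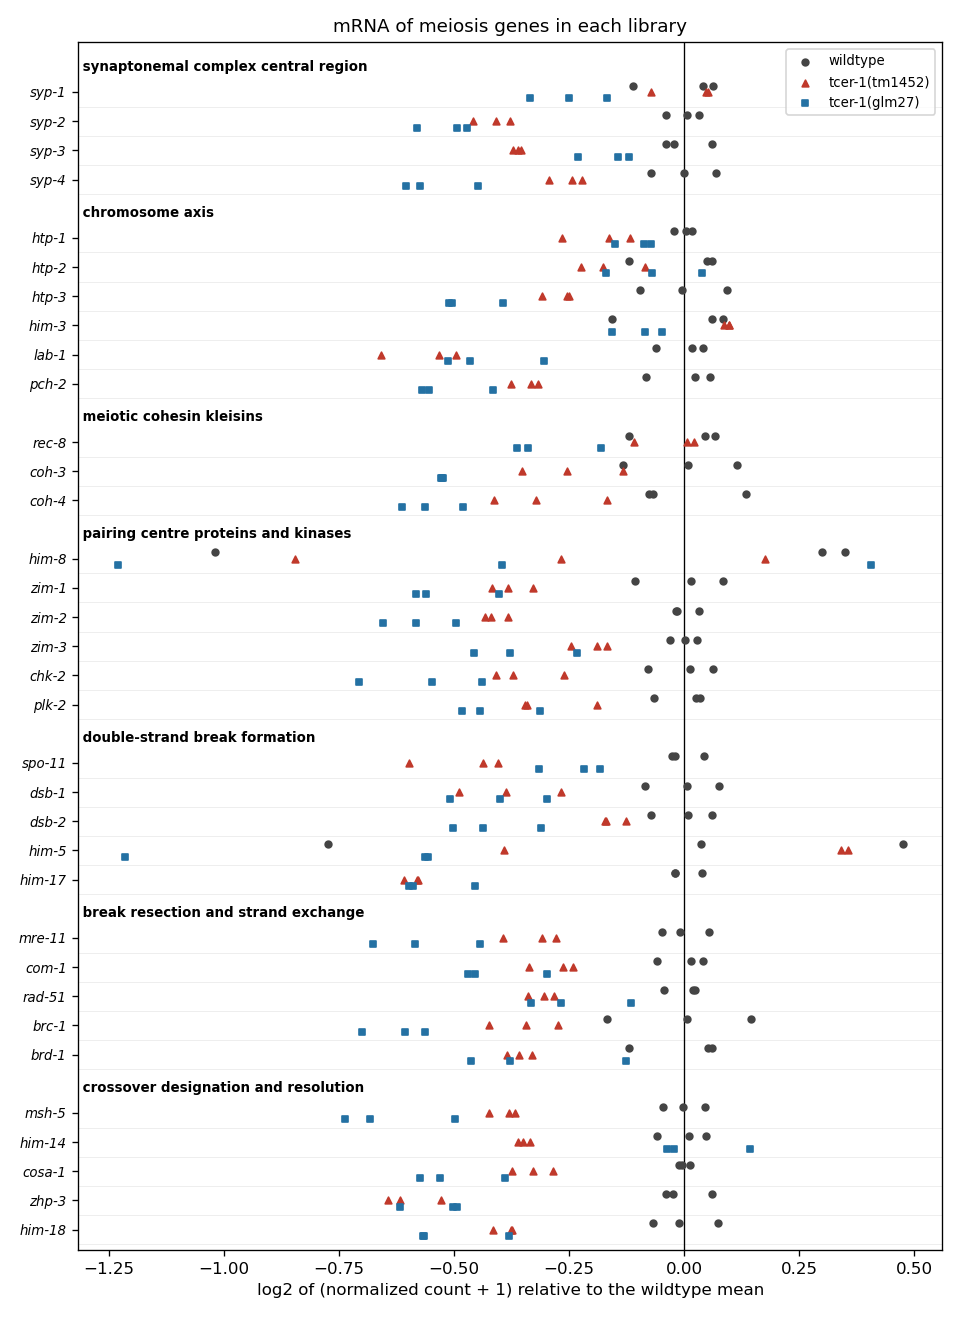
mRNA level of each of the 34 genes in each of the 9 mRNA-seq libraries, as log2 of the normalized count plus 1 relative to the wildtype mean of that gene (horizontal axis), with the genes grouped by role. Each point is 1 library, and for most genes the mutant libraries lie to the left of the wildtype ones, whereas the points of *him-5* and *him-8* spread widely within each genotype.

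The libraries themselves gave the same picture. All 3 *tm1452* libraries lay below all 3 wildtype libraries for 27 of the 34 genes, where 35.3% of all genes did so, and above them for 1 gene, *him-3*, where 36.6% of all genes did so. All 3 *glm27* libraries lay below wildtype for 29 genes, against 29.4% of all genes, and above for 0 genes, against 36.3%. Most of these genes belong to the CSR class, the 3606 genes with CSR class 22G-RNAs and an entry in the mRNA table, and genes of that class were generally lower in the mutants. Among the 3593 of them tested, 72.3% fell in *tm1452* (80 genes by 2-fold) and 78.2% in *glm27* (47 genes by 2-fold). The median log2 fold changes of the class were -0.31 and -0.35. Below these medians lay 18 of the 34 meiosis genes in *tm1452* and 23 in *glm27*.

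**Figure D2:**
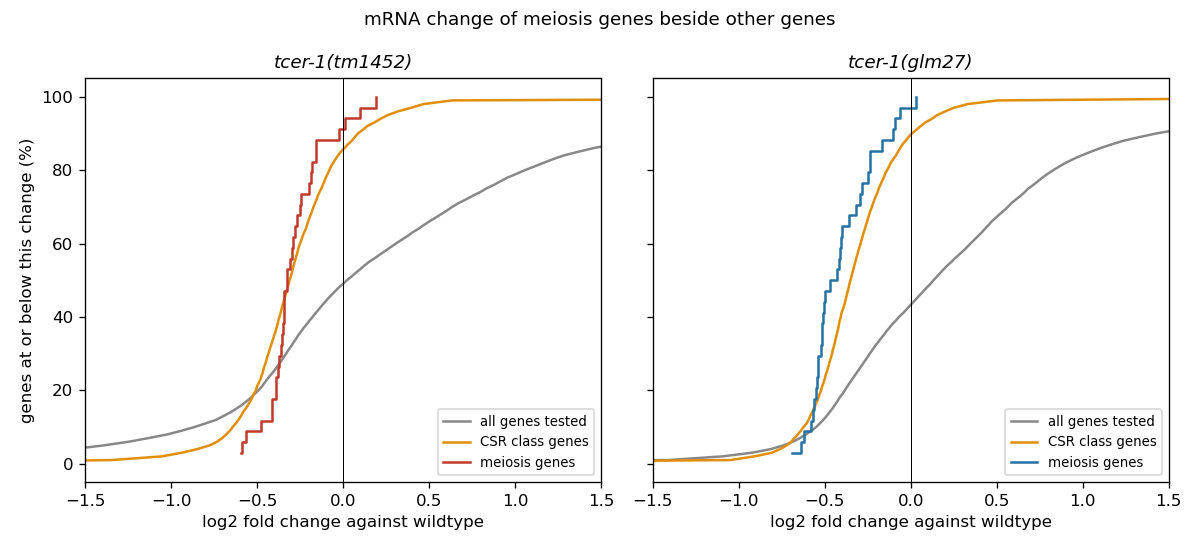
Cumulative distribution of log2 fold changes against wildtype (horizontal axis) in *tm1452* (left) and *glm27* (right), with the percentage of genes at or below each change on the vertical axis. The curve of the 34 meiosis genes lies left of that of all 17037 genes tested and runs near that of the CSR class genes, whose medians were -0.31 and -0.35.

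The synaptonemal complex is a zipper between paired homologs, and SYP-1, SYP-2, SYP-3 and SYP-4 make up its central region. Of these 4 genes, 3 fell in *tm1452* and 4 in *glm27*. *syp-2* (WBGene00006376, chrV:5536487-5537717) measured 1663, 1746 and 1715 normalized counts in wildtype, 1313, 1286 and 1243 in *tm1452* and 1231, 1141 and 1212 in *glm27*. Every mutant library was below every wildtype library, and *syp-2* fell by 25.0% in *tm1452* (log2 fold change -0.42, standard error 0.05, limma adjusted p = 5.65e-06) and by 30.0% in *glm27* (-0.52, standard error 0.05, limma adjusted p = 1.07e-06). *syp-4* measured 3120, 3280 and 3444 in wildtype, 2678, 2770 and 2813 in *tm1452* and 2406, 2156 and 2205 in *glm27*. The 3 genotypes of *syp-4* formed separate ranges, with log2 fold changes of -0.25 and -0.54. *syp-3* followed the other order, falling from 1146 ± 42.9 (SD, n = 3) to 892 ± 5.68 in *tm1452* and 1023 ± 41.4 in *glm27*. The fall of *syp-3* in *glm27*, -0.16 on the log2 scale, did not pass without wildtype replicate 2 (-0.13) or without *glm27* replicate 1 (-0.13). *syp-1* had nearly equal means in wildtype, 1634 ± 106, and *tm1452*, 1647 ± 79.2, and fell to 1375 ± 80.0 in *glm27* alone (log2 fold change -0.25, limma adjusted p = 0.00352). *syp-1* shares 517 exonic bases with F13A7.14 on the same strand, so its counts can hold reads of that gene.

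HTP-3, HIM-3, HTP-1 and HTP-2 carry HORMA domains and line the chromosome axis, LAB-1 guards cohesion during the meiotic divisions, and PCH-2 is an ATPase that remodels HORMA domain proteins. Of these 6 genes, 4 fell in *tm1452* and 3 in *glm27*. *lab-1* (WBGene00007278) measured 1079, 1022 and 1097 normalized counts in wildtype, 737, 675 and 756 in *tm1452* and 747, 862 and 771 in *glm27*. The mutant ranges of *lab-1* overlapped each other and lay wholly below wildtype, with log2 fold changes of -0.56 (standard error 0.07, limma adjusted p = 4.48e-06) and -0.43 (standard error 0.07, limma adjusted p = 7.93e-05). *pch-2* (WBGene00008641, chrII:8158349-8159925) measured 1808, 1990 and 1945 in wildtype, 1520, 1474 and 1535 in *tm1452* and 1435, 1302 and 1289 in *glm27*. It fell by 21.1% and 29.9%, with no overlap between any 2 genotypes. *htp-3* fell from 3060 ± 201 to 2535 ± 56.7 and 2211 ± 102, log2 fold changes of -0.27 and -0.47.

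*him-3*, which had the highest mRNA level per length of the list, measured 2339, 2720 and 2767 normalized counts in wildtype, 2791, 2772 and 2793 in *tm1452* and 2523, 2461 and 2340 in *glm27*. The *tm1452* libraries of *him-3* lay just above all wildtype libraries and the *glm27* ones overlapped them, and neither difference passed (log2 0.10, limma adjusted p = 0.165, and -0.09, limma adjusted p = 0.21). With equal upper quartiles in the libraries *him-3* was higher in *tm1452* (0.18), and without wildtype replicate 1, the lowest wildtype library, it was lower in *glm27* (-0.17).

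HTP-1 and HTP-2 are close paralogs, and *htp-1* lies at chrIV:5390189-5391557 and *htp-2* at chrIV:6419522-6420898. *htp-1* measured 2351, 2392 and 2415 normalized counts in wildtype, 2131, 2198 and 1984 in *tm1452* and 2271, 2245 and 2149 in *glm27*. Every mutant library was below every wildtype library, but *htp-1* passed in *tm1452* alone (log2 fold change -0.18, limma adjusted p = 0.00513) and stood at -0.10 in *glm27* (limma adjusted p = 0.0921). *htp-2* measured 1285, 1134 and 1275 in wildtype, 1162, 1054 and 1090 in *tm1452* and 1265, 1095 and 1173 in *glm27*. The ranges of *htp-2* overlapped between all genotypes, at log2 fold changes of -0.16 (limma adjusted p = 0.0519) and -0.06 (limma adjusted p = 0.434). The first of these passed when wildtype replicate 2 (-0.22), *tm1452* replicate 1 (-0.20) or *glm27* replicate 1 or 2 (-0.16 in each case) was left out. These genes share a run of 62 identical bases, and 10.4% and 10.3% of their exonic stretches of 22 bases occur elsewhere in the genome, so reads of 22 nt from such stretches could belong to either. The stretch around the shared run is shown because it is where small RNAs of the pair are hardest to tell apart. It is read from WBcel235 5′ to 3′ on the strand of each gene, *htp-1* at chrIV:5391002-5391123 on the reverse and *htp-2* at chrIV:6419962-6420083 on the forward strand, and capitals mark the 8 of 122 bases that differ.
htp-1: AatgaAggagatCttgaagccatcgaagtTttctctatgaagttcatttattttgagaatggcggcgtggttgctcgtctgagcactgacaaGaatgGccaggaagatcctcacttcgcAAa
htp-2: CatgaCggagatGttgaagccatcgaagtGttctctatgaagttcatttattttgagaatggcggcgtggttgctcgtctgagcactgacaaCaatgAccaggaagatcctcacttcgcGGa

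REC-8, COH-3 and COH-4 are the kleisins of meiotic cohesin, the ring subunits that tie sister chromatids together and build the axis. *coh-3* and *coh-4* fell in both mutants and *rec-8* in *glm27*. *coh-3* measured 1298, 1432 and 1540 normalized counts in wildtype, 1114, 1298 and 1192 in *tm1452* and 989, 986 and 987 in *glm27*. The 3 *glm27* libraries of *coh-3* were nearly equal and the lowest, and *tm1452* replicate 2 reached the wildtype range, with log2 fold changes of -0.24 in *tm1452* (limma adjusted p = 0.00625) and -0.52 in *glm27* (limma adjusted p = 1.44e-05). *coh-4* measured 796, 791 and 915 in wildtype, 626, 742 and 667 in *tm1452* and 597, 545 and 564 in *glm27*, again in the order wildtype, *tm1452*, *glm27*. Its log2 fold changes were -0.30 and -0.55, beside -0.24 and -0.52 for *coh-3*. *coh-4* also shares 327 exonic bases with Y45G5AM.7 on the same strand, so its counts can hold reads of that gene. *rec-8* measured 3092, 3521 and 3467 in wildtype, 3114, 3376 and 3412 in *tm1452* and 2964, 2612 and 2655 in *glm27*. *rec-8* overlapped wildtype in *tm1452* (-0.02) and lay below it in *glm27* (-0.29, limma adjusted p = 0.00119). The COH-3 and COH-4 genes, at chrV:14457422-14460141 and chrV:4169912-4175640, share a run of 40 bases, shown to give the extent of their likeness, with no exonic stretch of 50 bases in common. The stretch lies at chrV:14459347-14459417 on the forward strand in *coh-3* and at chrV:4171689-4171759 on the reverse strand in *coh-4*, and capitals mark the 6 of 71 bases that differ.
coh-3: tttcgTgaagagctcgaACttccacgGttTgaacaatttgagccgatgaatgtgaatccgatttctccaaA
coh-4: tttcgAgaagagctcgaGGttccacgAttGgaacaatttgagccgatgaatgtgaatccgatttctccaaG

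Pairing starts at pairing centres, where HIM-8 binds the X chromosome and ZIM-1, ZIM-2 and ZIM-3 bind the autosomes, and where the kinases CHK-2 and PLK-2 act. Of these 6 genes, 5 fell in each mutant, *him-8* being the exception. *zim-1*, *zim-2*, *zim-3* and *him-8* lie together in that order on the forward strand of chromosome IV from 10547086 to 10563974. *zim-2* measured 1585, 1642 and 1589 normalized counts in wildtype, 1189, 1231 and 1200 in *tm1452* and 1138, 1020 and 1071 in *glm27*. It fell by 24.8% and 33.0%, and the 3 genotypes did not overlap (log2 fold changes -0.41 and -0.58, limma adjusted p = 8.96e-06 and 5.32e-07). *zim-1* measured 2232, 2429 and 2548 in wildtype, 1800, 1914 and 1842 in *tm1452* and 1818, 1605 and 1628 in *glm27*. Its mutant libraries lay below all wildtype libraries and overlapped each other, at -0.37 and -0.51. *zim-3* fell less, from 1924 ± 39.7 to 1675 ± 46.3 and 1505 ± 120, or -0.20 and -0.36.

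The *zim* genes share sequence, which bears on how far their values are separate. *zim-1* and *zim-2* share 223 exonic bases on the same strand, and 4.6%, 14.4% and 18% of the exonic stretches of 50 bases of *zim-1*, *zim-2* and *zim-3* occur elsewhere in the genome. *zim-2* and *zim-3* share a run of 262 bases. The stretch that *zim-1* and *zim-2* share is shown for its position at the very start of *zim-1*, at chrIV:10547088-10547186 and, in *zim-2*, at chrIV:10555649-10555747, both on the forward strand, and capitals mark the 4 of 99 bases that differ.
zim-1: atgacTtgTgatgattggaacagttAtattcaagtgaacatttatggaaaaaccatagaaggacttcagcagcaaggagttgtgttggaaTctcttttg
zim-2: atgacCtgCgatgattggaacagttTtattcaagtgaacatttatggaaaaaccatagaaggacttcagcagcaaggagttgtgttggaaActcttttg

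*chk-2* (WBGene00000499, chrV:19908086-19916023), the kinase that starts many events of meiotic prophase, had the lowest mRNA level per length of the list. It measured 697, 632 and 673 normalized counts in wildtype, 516, 503 and 557 in *tm1452* and 492, 456 and 408 in *glm27*. The 3 genotypes of *chk-2* formed separate ranges, with log2 fold changes of -0.35 (standard error 0.08, limma adjusted p = 0.00119) and -0.56 (standard error 0.08, limma adjusted p = 2.13e-05). Of its exonic stretches of 50 bases 7.58% occur elsewhere. *plk-2*, a polo-like kinase recruited to pairing centres, fell from 3457 ± 131 to 2826 ± 177 and 2600 ± 163. *him-8* measured 1918, 741 and 1851 in wildtype, 837, 1250 and 1700 in *tm1452* and 1995, 640 and 1142 in *glm27*. Its values ran over much the same range in each genotype, and its log2 fold changes of -0.19 and -0.28 had a standard error of 0.39.

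Meiotic recombination begins with breaks that SPO-11 makes, aided by DSB-1 and DSB-2, by HIM-5, which promotes breaks on the X chromosome, and by the chromatin protein HIM-17. Of these 5 genes, 4 fell in *tm1452* and 5 in *glm27*. *him-17* (WBGene00001874, chrV:13176711-13180185) measured 5525, 5754 and 5530 normalized counts in wildtype, 3744, 3750 and 3672 in *tm1452* and 4088, 3724 and 3699 in *glm27*. Every mutant library was over 1000 counts below every wildtype library. *him-17* fell by 33.6% in *tm1452* (log2 fold change -0.59, standard error 0.05, limma adjusted p = 8.85e-08) and by 31.5% in *glm27* (-0.55, standard error 0.05, limma adjusted p = 3.76e-07). Ranked by the smaller of its changes in the mutants, *him-17* came first among the 26 genes lower in both.

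*dsb-1* (WBGene00008580, chrIV:12408925-12410470) measured 1618, 1724 and 1810 normalized counts in wildtype, 1222, 1427 and 1313 in *tm1452* and 1397, 1207 and 1301 in *glm27*. The mutants overlapped each other and lay below wildtype, at log2 fold changes of -0.38 and -0.40. *spo-11* fell from 1780 ± 46.4 to 1278 ± 89.5 in *tm1452* and 1509 ± 70.7 in *glm27*, or -0.48 and -0.24. *dsb-2* fell from 851 ± 39.5 to 763 ± 13.8 and 637.8 ± 43.7. Its fall in *tm1452* was small (-0.15, limma adjusted p = 0.0442) and did not pass when wildtype replicate 2 (-0.12), wildtype replicate 3 (-0.15), any of the *tm1452* libraries (-0.15, -0.15 and -0.17) or *glm27* replicate 3 (-0.15) was left out. *him-5* measured 365, 641 and 869 in wildtype, 476, 801 and 791 in *tm1452* and 425, 269 and 423 in *glm27*. Wildtype replicate 1 lay within the *glm27* range, and the fall of *him-5* in *glm27* (log2 -0.69, standard error 0.27, limma adjusted p = 0.0389) did not pass without wildtype replicate 2 (-0.63), wildtype replicate 3 (-0.41) or *glm27* replicate 2 (-0.47).

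Broken ends are trimmed by the nuclease MRE-11 with COM-1, RAD-51 carries out strand exchange, and BRC-1 and BRD-1 form a ubiquitin ligase that acts on break repair. All 5 genes fell in both mutants, with log2 fold changes of -0.35 to -0.28 in *tm1452* and -0.62 to -0.24 in *glm27*. *brc-1* (WBGene00000264, chrIII:3853102-3862968) measured 1392, 1728 and 1569 normalized counts in wildtype, 1165, 1231 and 1293 in *tm1452* and 1026, 961 and 1057 in *glm27*. The 3 genotypes of *brc-1* did not overlap, and it fell by 21.3% (limma adjusted p = 0.000876) and by 35.1% (limma adjusted p = 5.69e-06). Of its exonic stretches of 50 bases 17.2% occur elsewhere in the genome. *brd-1*, which encodes the partner of BRC-1, fell from 1384 ± 95.2 to 1080 ± 20.3 and 1112 ± 139. *mre-11* fell from 3872 ± 137 to 3088 ± 125 and 2616 ± 213, *com-1* from 1340 ± 48.5 to 1103 ± 37.5 and 1012 ± 67.7, and *rad-51* from 1831 ± 46.9 to 1479 ± 29.1 and 1555 ± 122. *rad-54.L* (WBGene00004298), whose name is nearest to the listed *rad-54*, measured 1639 ± 48.5, 1255 ± 12.1 and 1182 ± 70.2, log2 fold changes of -0.38 and -0.47.

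Crossovers are marked by the MutS proteins MSH-5 and HIM-14, the cyclin-like COSA-1 and the RING protein ZHP-3, and HIM-18 is a scaffold for the nucleases that resolve joined DNA. All 5 genes fell in *tm1452* and 4 in *glm27*. *zhp-3* (WBGene00006976) measured 1497, 1512 and 1603 normalized counts in wildtype, 1066, 1002 and 984 in *tm1452* and 1092, 1002 and 1086 in *glm27*. The mutants of *zhp-3* shared a range far below wildtype. It fell by 33.9% (log2 -0.60, standard error 0.06, limma adjusted p = 4.05e-07) and by 31.1% (-0.54, standard error 0.06, limma adjusted p = 1.93e-06). *msh-5* (WBGene00003421, chrIV:13155233-13164054) measured 2411, 2485 and 2568 in wildtype, 1911, 1853 and 1927 in *tm1452* and 1761, 1549 and 1493 in *glm27*. Its genotypes formed 3 separate ranges, with log2 fold changes of -0.39 and -0.64.

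*him-18* (WBGene00011415, chrIII:4712580-4715188) measured 1963, 2041 and 2165 normalized counts in wildtype, 1584, 1587 and 1542 in *tm1452* and 1580, 1387 and 1389 in *glm27*, all mutant libraries being below all wildtype ones. Its log2 fold changes were -0.39 and -0.50. *cosa-1* fell from 671 ± 5.81 to 534 ± 16.2 and 476 ± 32.5. *him-14* (WBGene00001872, chrII:7065020-7069966) was the exception of the crossover genes, at 1671, 1752 and 1798 in wildtype, 1355, 1365 and 1380 in *tm1452* and 1922, 1695 and 1714 in *glm27*. The *glm27* libraries of *him-14* overlapped wildtype (log2 0.03, limma adjusted p = 0.688) while those of *tm1452* lay below (-0.35, limma adjusted p = 7.63e-05). With equal upper quartiles *him-14* was higher in *glm27* (0.17). MSH-5 and HIM-14 act as a pair, and of their mRNAs only that of *msh-5* fell in *glm27*. *him-14* shares 154 exonic bases with *nos-2* on the other strand, and 5.85% of its exonic stretches of 50 bases occur elsewhere. *tcer-1*, the gene mutated in both strains, lies near *him-14*, at chrII:7045874-7050071. The part of this nearness in the values of *him-14* was not tested.

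The spread within a genotype set *him-5* and *him-8* apart from the other genes. The mean coefficient of variation within a genotype was 30.4% for *him-5* and 44.2% for *him-8*, against 2.81 to 7.25% for the other 32 genes and a median of 4.70% over the list. Among the 4812 genes of similar level (mean of 548 to 4390 normalized counts, the range of the list) the median was 4.55%, and 0.478% and 0.249% of these genes had a value as high as those of *him-5* and *him-8*. Both spreads were present in wildtype as in the mutants. Neither gene has an exonic stretch of 50 bases found elsewhere in the genome.

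Compared directly with each other, the alleles differed at 20 of the 34 genes. *tm1452* was above *glm27* at 17 genes, 50% of the list where 27.3% of all genes were, and below it at 3 genes (*syp-3*, *spo-11* and *him-14*), 8.82% where 19.8% of all genes were. In the CSR class these shares were 25.3% and 11.9%. The libraries of the alleles did not overlap at 17 and 3 genes, against 32.8% and 23.7% of all genes. The median difference was 0.15 on the log2 scale, against 0.06 over all genes. *him-5* differed most, at 0.88 (standard error 0.27, limma adjusted p = 0.0154), but did not pass without *tm1452* replicate 2 (0.75), *tm1452* replicate 3 (0.76) or *glm27* replicate 2 (0.66), nor in a fit with no trend. It was followed by *him-14* at -0.38 (standard error 0.06, limma adjusted p = 9.01e-05), *syp-4* at 0.29, *coh-3* at 0.28, *brc-1* at 0.28 and *rec-8* at 0.27. The count of 17 was not stable. It came to 11 without *tm1452* replicate 3, 10 without *glm27* replicate 2 and 11 without *glm27* replicate 3, and to 11 higher with 7 lower with equal upper quartiles.

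**Figure D3:**
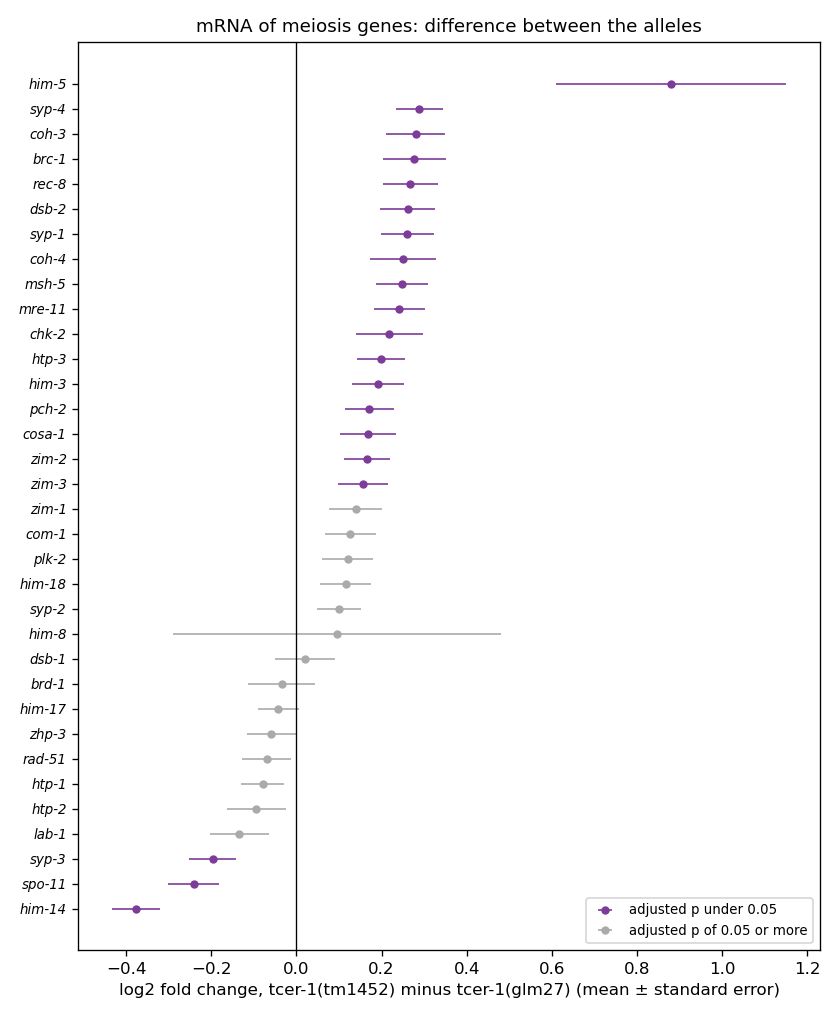
Difference of each mRNA between the alleles, as the limma log2 fold change of *tm1452* minus *glm27* with its standard error (horizontal axis), for the 34 genes in order of the difference. Points in purple passed an adjusted p of 0.05 (17 above 0 and 3 below), and *him-5* at 0.88 lies farthest from 0 with the second widest error bar.

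Genes of the same processes outside the list moved the same way. Of 46 other meiosis genes with an entry, 39 fell in *tm1452* and 40 in *glm27*, none rose in either, and the medians were -0.37 and -0.45. SYP-5 and SYP-6 are further central region proteins, and *syp-6* fell from 3080 to 2194 and 2156 normalized counts while *syp-5* passed in *glm27* alone (1837, 1751 and 1372). *rip-1*, whose protein assists RAD-51, was the single gene of the 46 that fell 2-fold, at 29.9, 35.6 and 39.9 in wildtype, 6.63, 7.99 and 5.49 in *tm1452* and 6.60, 10.8 and 8.38 in *glm27*. Its log2 fold changes were -2.23 and -1.93 at a far lower count than any listed gene. *mjl-1*, *zhp-1*, *rad-50*, *rfs-1*, *polq-1* and *skr-1* passed in neither mutant.

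Marker genes of germline stem cells, pachytene and oocytes moved with these genes, whereas most of the spermatogenesis genes, given further below, rose. Summed over the 34 genes, the libraries held 63777 to 68544 normalized counts in wildtype, 52722 to 54731 in *tm1452* and 47876 to 54000 in *glm27*. Of 15 genes of germline stem cells and pachytene, 11 and 13 fell, and their sum went from 114560 to 115640 in wildtype to 80349 to 85136 and 74126 to 81446. Of 16 oocyte and maternal genes, 14 fell in each mutant and 1 rose in *glm27*, and their sum went from 421450 to 447030 to 270320 to 295640 and 284490 to 309600. Relative to the stem cell and pachytene sum, a ratio chosen after the values were seen, the 34 genes came to 55.7 to 59.7% in wildtype, 64.1 to 65.8% in *tm1452* and 63.3 to 66.3% in *glm27*. Relative to the oocyte sum they came to 14.9 to 15.4%, 18.4 to 19.9% and 16.8 to 17.4%. The summed mRNAs of the meiosis genes were thus lower by less than the stem cell and pachytene sum and the oocyte sum in every mutant library.

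The other gene lists did not all move in the same direction as each other. Of 12 body wall muscle genes, 12 rose in *tm1452* and 11 in *glm27*, and their sum was 53019 to 65935 in wildtype, 180910 to 206570 and 75790 to 82806. Of 12 cuticle collagens, 9 and 11 rose and 3 and 1 fell. Of 19 spermatogenesis genes, 15 and 13 rose and 2 fell in each, with median log2 fold changes of 3.50 and 2.30. Their sum was 2747 to 3045 in wildtype, 5311 to 5750 in *tm1452* and 2655 to 2928 in *glm27*. In *glm27* the sum thus does not show the rise of most of these genes. Of 11 intestinal genes, 5 and 8 rose and 2 fell in each. The 6 vitellogenins fell in *tm1452*, and 1 of them rose in *glm27*. No gene of these lists was at 0 in every library. The part of these shifts in the fall of the meiosis genes was not tested.

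**Figure D4:**
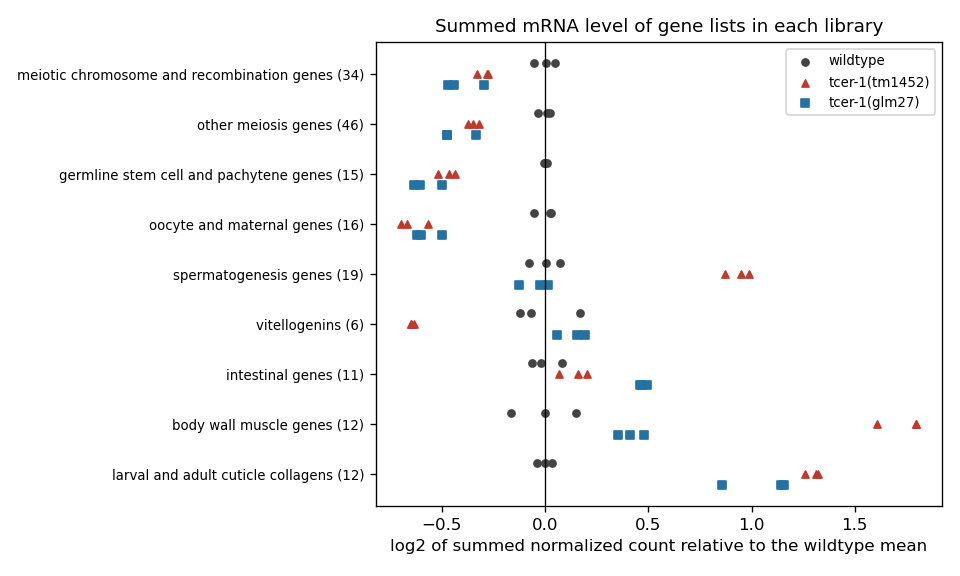
Summed normalized count of each gene list in each mRNA-seq library, as log2 relative to the wildtype mean (horizontal axis), with the number of genes in brackets. The sums of the meiosis genes, the stem cell and pachytene genes and the oocyte genes lie below 0 in all 6 mutant libraries, and those of muscle genes and collagens lie above.

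Levels were compared between genes per kb of exon. In wildtype they ran from 264 normalized counts per kb for *chk-2* to 2232 for *him-3*, an 8.47-fold range with a median of 1188. *htp-1* (1941) and *him-17* (1811) followed *him-3*, and these leading genes did not overlap in the wildtype libraries. Of the 33 pairs of neighbours in this order, 25 overlapped, so most of the order is not resolved. *htp-1* stood at 1941 per kb beside 996 for its paralog *htp-2*, and *coh-3* at 671 beside 406 for *coh-4*. The genes lay on chromosomes I (6 genes), II (3), III (5), IV (12) and V (8), and none lay on X.

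The 22G-RNAs were measured as antisense reads of 21 to 23 nt with a 5′ G, in RPM (reads scaled by the authors to the size of the library), and these 30 genes had wildtype means of 2.83 RPM (*cosa-1*) to 100.4 RPM (*htp-1*), with 11 of them under 10 RPM. Of the 30, 13 fell and 1 rose in *tm1452*, and 15 fell and 1 rose in *glm27* (limma, adjusted over 7628 small RNA features). The shares of 43.3% and 50% lower were near those of all features, 42.3% and 44.3%, and of CSR class loci, 47.6% and 57.4%. The share higher, 3.33% in each, stood beside 11.2% and 8.46% of all features and was near that of CSR class loci, 3.14% and 2.95%. By the limma estimate, on the scale of log2 of RPM plus 1, no gene fell 2-fold, as 10.9% and 8.97% of all features did. Only 45 and 92 of the 3154 CSR class loci tested did so. The plain RPM mean of *pch-2* did fall by more than that in *glm27*, by 53.3%. Libraries did not overlap for 15 genes below wildtype and 1 above in *tm1452*, where 51.8% and 12.8% of all features did so, and for 19 and 1 in *glm27*, where 59.2% and 11.7% did. The median log2 fold changes were -0.23 and -0.30, against -0.33 over all features in either mutant.

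These directions depended on the scale. With equal upper quartiles in the libraries or scaling by median of ratios, 0 of the 30 genes were lower and 6 higher in *tm1452*, and 2 lower and 7 higher in *glm27*. Scaling the libraries to the same miRNA total gave 26 lower and 0 higher in either mutant. Under these scalings the median over all features moved from -0.33 to -0.04 and 0.01 with equal upper quartiles, and to -0.68 and -0.69 with equal miRNA totals. Relative to that median, the median of the 30 genes was higher by 0.09 in *tm1452* and 0.02 in *glm27* on the RPM scale, by 0.09 and 0.05 with equal upper quartiles, and by 0.07 and 0.02 with equal miRNA totals. The 22G-RNAs of these genes thus moved by about as much as small RNA features in general. Without *tm1452* replicate 3, 18 genes were lower in that mutant in place of 13, at a median of -0.33. The same count was 7 without wildtype replicate 1, 7 without wildtype replicate 2, 8 without *tm1452* replicate 1 and 6 without *tm1452* replicate 2.

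**Figure D5:**
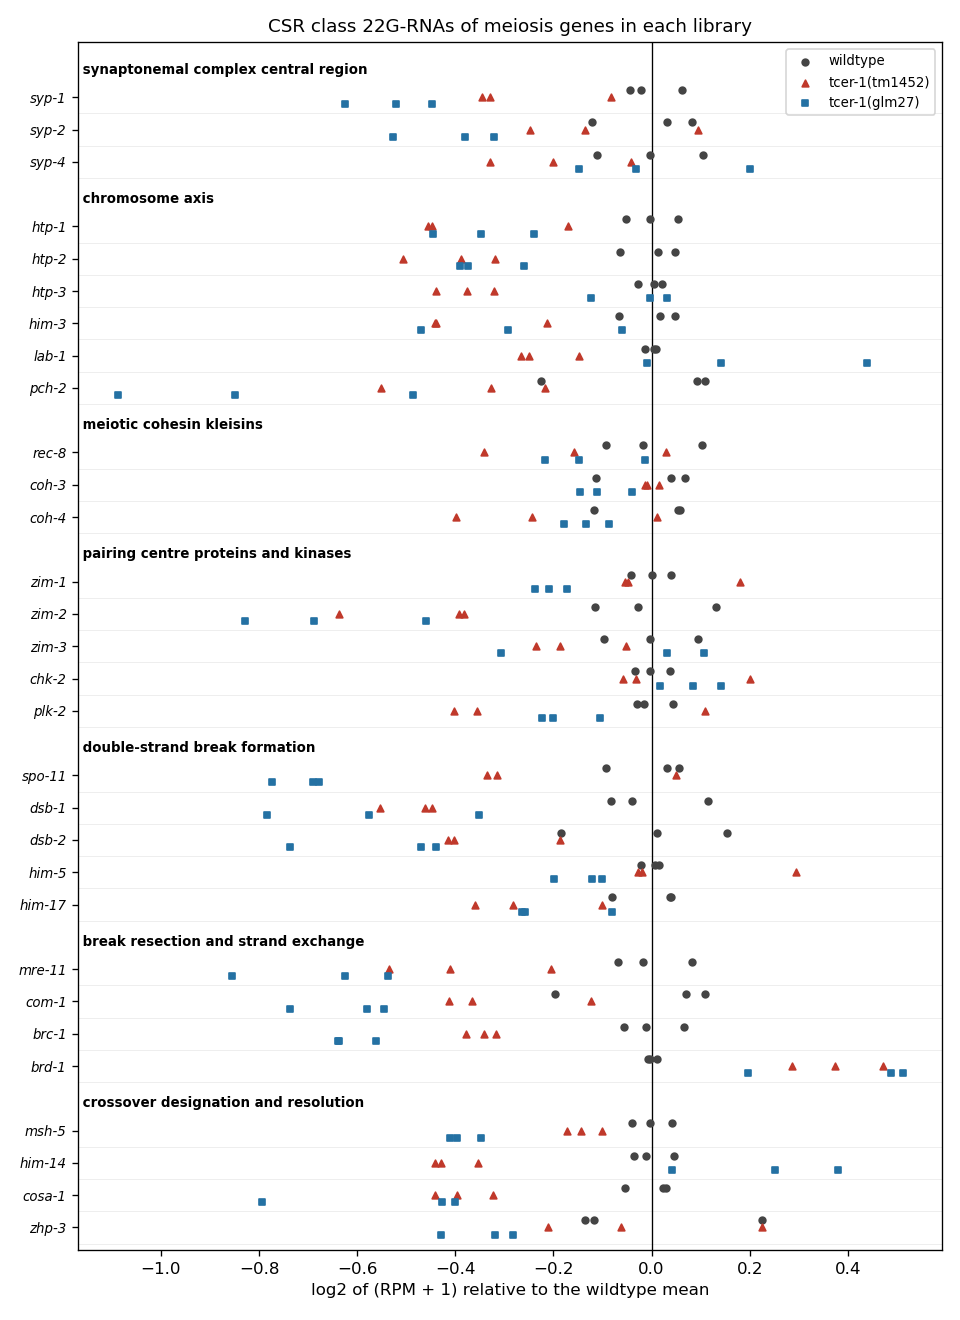
CSR class 22G-RNA level of each of the 30 genes in each of the 9 sRNA-seq libraries, as log2 of RPM plus 1 relative to the wildtype mean of that gene (horizontal axis), grouped by role. The mutant libraries lie mostly left of the wildtype ones and *brd-1* lies to the right in all 6 mutant libraries.

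The genes named for their 22G-RNAs were chosen after their values were seen. *brd-1* was the only gene that rose on the RPM scale, at 11.7, 11.9 and 11.7 RPM in wildtype, 14.5, 15.5 and 16.7 in *tm1452* and 17.2, 16.9 and 13.6 in *glm27*. All 6 mutant libraries were above all wildtype libraries (log2 fold changes 0.38, limma adjusted p = 0.0111, and 0.40, limma adjusted p = 0.00803), whereas the mRNA of *brd-1* fell in both mutants. With equal upper quartiles other genes were higher as well, among them *chk-2* (0.34 in *tm1452* and 0.46 in *glm27*). With equal miRNA totals the 22G-RNAs of *brd-1* did not pass (0.02 and 0.03). The 22G-RNAs of *brc-1*, whose protein pairs with that of *brd-1*, went the other way, at 30.1, 29.2 and 31.9 RPM in wildtype, 23.1, 23.8 and 24.2 in *tm1452* and 19.2, 20.3 and 19.2 in *glm27*. They fell by 22.0% and, in *glm27*, fell by 35.7%, with no overlap between genotypes, though the former did not pass with equal upper quartiles (-0.04). Of the exonic stretches of 22 bases of *brc-1*, 24.8% occur elsewhere in the genome.

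The 22G-RNAs of the other 28 genes fell or did not pass on the RPM scale. Those of *htp-1* fell from 100.4 ± 3.79 RPM to 78.5 ± 9.21 and 79.0 ± 5.76, and those of *htp-2* from 24.7 ± 1.01 to 18.4 ± 1.27 and 19.3 ± 1.0, but with equal upper quartiles neither passed in *tm1452* (-0.05 and -0.11) and both turned in *glm27* (0.04 and 0.03). The run of 62 bases that the pair shares allows reads of either gene to count for the other. Those of *spo-11* measured 4.10, 4.65 and 4.56 RPM in wildtype, 4.63, 3.37 and 3.31 in *tm1452* and 2.40, 2.18 and 2.37 in *glm27*, falling in *glm27* alone (log2 -0.71, limma adjusted p = 0.00183). The lowest estimate was that of *pch-2* in *glm27*, -0.80, at 3.72 ± 0.590 RPM in wildtype and 1.74 ± 0.584, which did not pass with equal upper quartiles (-0.53). By role, 1 and 2 of 3 synaptonemal complex genes fell in *tm1452* and *glm27*, with 4 and 3 of 6 axis genes and 1 and 2 of 5 pairing centre genes and kinases. Of the genes of break formation 2 and 3 of 5 fell, of those of resection and strand exchange 2 and 3 of 4, and of the crossover genes 3 and 2 of 4. Of the 3 kleisins 0 fell in either mutant, although *rec-8*, *coh-3* and *coh-4* were all lower in both with equal miRNA totals (-0.58 to -0.37 and -0.51 to -0.48). With equal upper quartiles *coh-3* was instead higher in both (0.30 and 0.27). Without *tm1452* replicate 3, *rec-8* (-0.25) and *coh-4* (-0.32) were lower in *tm1452*. On the RPM scale with all libraries, 0 kleisins also passed at an unadjusted p under 0.05 in *tm1452* and *glm27*, by limma, the single tool run.

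Between the alleles, the 22G-RNAs of 3 genes were lower in *tm1452* (*htp-3*, *lab-1* and *him-14*), 10.0% where 10.7% of all features and 4.28% of CSR class loci were, and those of 5 were higher (*syp-1*, *zim-1*, *spo-11*, *brc-1* and *msh-5*), 16.7% where 17.2% and 11.1% were. Libraries did not overlap at 3 genes below and 12 above, against 16.0% and 26.4% of all features. *him-14* showed the widest gap, at 16.4, 16.2 and 17.2 RPM in wildtype, 12.8, 11.9 and 12.1 in *tm1452* and 19.9, 21.9 and 17.1 in *glm27*. Its 22G-RNAs were below wildtype in *tm1452* (-0.41, limma adjusted p = 0.0055) and overlapped wildtype in *glm27* (0.23, limma adjusted p = 0.0666), the same order as its mRNA. With equal upper quartiles the former did not pass (-0.12) and the latter was higher than wildtype (0.59). *htp-3* had 52.3 ± 0.933 RPM in wildtype, 40.1 ± 1.69 in *tm1452* and 51.2 ± 2.90 in *glm27*, while its mRNA was lower in *glm27* than in *tm1452*. The difference of *syp-1* (0.28, limma adjusted p = 0.0497) did not pass when any 1 of the 9 libraries was left out, nor under any of the other scalings. That of *zim-1* (0.23) did not pass under these scalings either, nor without any 1 of the wildtype or *glm27* libraries. That of *lab-1* (-0.41) did not pass without any 1 of the wildtype libraries, *tm1452* replicate 1 or 2 or *glm27* replicate 1 or 2. With equal miRNA totals those of *brc-1* (0.27), *msh-5* (0.25), *htp-3* (-0.35) and *lab-1* did not pass. That of *spo-11* (0.51) did not pass without *glm27* replicate 2. The count of 5 higher was 3 without any 1 of the wildtype or *glm27* libraries.

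Across the 30 genes with both readouts, the change of the mRNA was set beside that of the 22G-RNAs. Pearson's r was -0.01 (Spearman's rho -0.08) in *tm1452* and 0.16 (0.10) in *glm27*. These are descriptions across genes, which share their libraries and are not independent replicates.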

How the data were processed

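mRNA and small RNAs were measured in 9 libraries each, 3 per genotype. For mRNA-seq the authors depleted rRNA, made stranded paired-end libraries, trimmed them with fastp, quantified them with RSEM 1.3.1 and STAR 2.7.10b against WormBase WS279 and deposited counts divided by DESeq2 (1.50.2) size factors, a signal with no unit. For sRNA-seq the authors size-selected RNA of 16 to 30 nt, treated it with a polyphosphatase and deposited RPM values from tinyRNA with default settings. The steps between values gave about 18025812 to 27758305 reads per mRNA-seq library and 12904000 to 16000000 per sRNA-seq library. Only 50.3 to 85.5% (within 0.02 read) and 93.2 to 95.1% (within the rounding of 0.005 RPM) of low values were whole reads, so no count test was run. The small RNA values had been planned for as possibly size-factor counts and proved to be RPM. Of the small RNA entries, 491 repeats of a locus under several classes were collapsed and 1194 23H-RNA entries were left out.

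Values were tested on the scale of log2(value + 1) with R 4.3.3 and its package limma 3.58.1 (a linear model per feature, moderated by eBayes with a trend). All 9 libraries of a kind entered the fit, features with a mean of at least 2 were tested, and p-values were adjusted over all of them. Folds are thus understated for low features, and more so for 22G-RNAs of a few RPM. Those of *pch-2* in *glm27* had a ratio of mean RPM to wildtype of 0.467 beside a log2 fold change of -0.80. Python 3.11.15 with pandas 2.3.3, numpy 2.4.6 and matplotlib 3.10.9 served for tables and figures. Positions and sequences are those of WBcel235, the assembly of WS279. The genes and lists were chosen with earlier results of these data known. Values in every library are given for *tcer-1*, for the 12 genes lower in both mutants with the largest smaller change, for up to 6 genes that differ most between alleles, for the highest and lowest level per length, and for the pairs *htp-1* and *htp-2* and *coh-3* and *coh-4*. *him-8*, *syp-5*, *syp-6*, *rip-1* and all 22G-RNAs singled out were otherwise chosen after their values were seen, and of the other lists, genes changed 2-fold were not named except *rip-1*, against that rule. The sources used here give replicate numbers but not how replicates were kept apart, so p-values measure the spread between these libraries. Alternatives were pseudocounts of 0.5 and 5, no filter or a mean of 10, libraries scaled to equal upper quartiles, by median of ratios or to equal miRNA totals, fits of the compared groups alone, no trend, a replicate block, an adjusted p under 0.01 and each library left out in turn.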

Additional observations from a re-analysis of the deposited data

Results flagged for a closer look

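The results below are those in which *tcer-1(tm1452)* and *tcer-1(glm27)*, called *tm1452* and *glm27*, differed from each other by the limma test of that difference at an adjusted p under 0.05. All values are log2 fold changes, positive where *tm1452* was higher. For mRNA, the synaptonemal complex genes *syp-1* and *syp-4* differed by 0.26 and 0.29, and *syp-3* by -0.20. The axis genes *htp-3*, *him-3* and *pch-2* differed by 0.20, 0.19 and 0.17, and the kleisins *rec-8*, *coh-3* and *coh-4* by 0.27, 0.28 and 0.25. Among pairing centre genes and kinases, *zim-2*, *zim-3* and *chk-2* differed by 0.17, 0.16 and 0.22. Among the genes of break formation, *dsb-2* differed by 0.26, *spo-11* by -0.24 and *him-5* by 0.88, where *him-5* varied widely within each genotype. In repair and crossover formation, *mre-11*, *brc-1*, *msh-5* and *cosa-1* differed by 0.24, 0.28, 0.25 and 0.17, and *him-14* by -0.38.

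For 22G-RNAs, *syp-1*, *zim-1*, *spo-11*, *brc-1* and *msh-5* differed by 0.28, 0.23, 0.51, 0.27 and 0.25. *htp-3*, *lab-1* and *him-14* differed by -0.35, -0.41 and -0.63. The difference of *syp-1* passed by a narrow margin (limma adjusted p = 0.0497) and was lost when any 1 library was left out. That of *zim-1* was lost without any 1 of the wildtype or *glm27* libraries. That of *lab-1* was lost without any 1 of the wildtype libraries, *tm1452* replicate 1 or 2 or *glm27* replicate 1 or 2, and that of *spo-11* without *glm27* replicate 2. Those of *brc-1*, *msh-5*, *htp-3*, *lab-1* and *zim-1* were lost with equal miRNA totals.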

How the results depend on the processing

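The mRNA counts of genes lower than in wildtype held within 1.5 times under every alternative run, and with libraries left out in turn they ran from 27 to 29 in *tm1452* and from 27 to 30 in *glm27*, with 0 higher throughout. Equal upper quartiles gave 1 gene higher in each mutant and moved the median over all genes from 0.13 to 0.27 in *glm27*. The median of the 34 genes relative to that median was -0.58 on either scale. Between the alleles, equal upper quartiles gave 7 mRNAs lower and 11 higher, a fit with no trend 9 higher and an adjusted p under 0.01 also 9 higher. Leaving out libraries gave 10 to 21 higher and 3 lower.

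The 22G-RNA counts depended on the scale. Equal upper quartiles and median of ratios each gave 0 lower and 6 higher in *tm1452*, and 2 lower and 7 higher in *glm27*, and equal miRNA totals gave 26 lower and 0 higher in either. The medians turned to 0.047 and 0.051 in *tm1452* and to 0.066 and 0.069 in *glm27* under the first scaling and the second. So did, in *tm1452*, *coh-3* (0.30), *him-17* (0.046 and 0.050), *msh-5* (0.17) and *syp-1* (0.044 and 0.048), and in *glm27*, *coh-3* (0.27 and 0.28), *htp-1* (0.038 and 0.040), *htp-2* (0.029 and 0.032), *htp-3* (0.35) and *zim-1* (0.18). Equal miRNA totals turned *chk-2* (-0.35) and *zim-1* (-0.36) in *tm1452* and *syp-4* (-0.38) in *glm27*. An adjusted p under 0.01 gave 5 lower and 0 higher in *tm1452*, and a mean of 10 gave 7 lower of the 19 genes left in *glm27*. Leaving out libraries gave 6 to 18 lower and 1 higher in *tm1452*, and 13 to 18 lower and 1 to 2 higher in *glm27*. Between the alleles the count of 5 higher became 3 with no filter, equal upper quartiles, median of ratios or no trend, 2 with the compared groups alone or an adjusted p under 0.01, and 1 with 1 lower under equal miRNA totals, and leaving out libraries gave 3 to 4 higher and 2 to 4 lower. A mean of 10 turned that median to -0.039. The cause of these shifts was not tested, other than the scale itself and the fewer genes or libraries.

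Deviations of same-numbered libraries from their genotype means correlated at r = -0.04 to 0.08 for mRNA and -0.53 to 0.38 for sRNA. Those of differently numbered libraries correlated at -0.07 to 0.04 and -0.54 to 0.57, so no clear pairing by number was seen. These values cannot tell whether libraries of the same number were prepared together. With the number as a replicate block, 28 and 29 mRNAs were lower and 0 higher in *tm1452* and *glm27*, 3 lower and 15 higher between the alleles, and 9 and 14 22G-RNAs lower and 1 higher in each. Between the alleles the block left 2 22G-RNAs lower and 3 higher.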
